A study of Mus musculus with 12 samples.

Results

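Genes of 10 protease inhibitors were followed in bone marrow M-MDSCs of young and aged mice: the WAP domain genes Wfdc17 and Slpi, the stefin A genes Stfa1, Stfa2, Stfa2l1, Stfa3 and BC100530, the related inhibitors Cstb (stefin B) and Cst3 (cystatin C), and the serpin Serpinb1a. They were taken by symbol from the 23420 genes of the count table, and all 10 were among the 9742 genes with enough counts to be tested. Wfdc17 was selected on its large rise with age in these same counts, so its values are given as a description without a test. M-MDSCs, monocytic myeloid-derived suppressor cells, were sorted from bone marrow of male C57BL/6JNIA mice as CD11b+Ly6G-Ly6Chi cells. The young group held 6 mice of 6 months and the aged group held 6 mice of 24 months, with 1 RNA library for each mouse.

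Stefins are small inhibitors inside the cell that fit into the active site of cysteine cathepsins, the proteases of lysosomes, and cystatin C does the same outside the cell. Proteins with a WAP domain (the fold of whey acidic protein) such as Slpi are secreted, and Slpi blocks elastase and cathepsin G of neutrophil granules, and Serpinb1a blocks elastase and related serine proteases inside myeloid cells. The mouse genome carries a cluster of stefin A genes where the human genome has a single gene, and several of its members are abundant in maturing neutrophils.

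The label of the sort was first compared with marker genes. Transcripts of neutrophil granules were very abundant in every library: Ngp, a granule protein gene, ranged from 24875 to 44393 CPM (counts of a gene scaled to the normalized library total) and Ltf, the gene of lactoferrin, from 17457 to 26842 CPM. Ccr2, the chemokine receptor that defines inflammatory monocytes, ranged from 5.03 to 62.0 CPM over the same mice. Summed over 13 neutrophil markers, aged mice had 96628 to 115244 CPM against 74801 to 101497 CPM in the young group, and no marker of that list was at 0. Of these markers, 7 of 13 were called higher in aged mice, where 22.4% of all genes tested were. With the correction for gene length described further on, 2 of 13 (Cd177 and Lrg1) were called higher, against 18.3% of all genes tested. The study itself scored M-MDSCs with a set of genes that includes Cxcr2, Retnlg, Lrg1, Stfa2l1 and BC100530. The cells are therefore called M-MDSCs here only as the label does. In RNA of sorted cells, a changed share of cells and a changed level per cell cannot be told apart.

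Library totals ranged from 8737941 to 16300374 fragments in aged mice and from 4613239 to 9079237 in young mice. Young mice 5 and 6 stood apart from the other young mice, with normalization factors of 1.101 and 1.083 and the lowest summed neutrophil markers (74801 and 79733 CPM), and results are also given without them. Resident macrophage markers rose in aged mice for 10 of the 10 markers tested, against 22.4% of all genes tested. With the length correction all 10 were still called, against 18.3% of all genes tested. Their sums were 90.8 to 1186 CPM in aged against 78.7 to 98.9 CPM in young mice, and aged mouse 1 was the highest. The monocyte markers summed to 4328 to 5384 CPM in aged and 4894 to 5215 CPM in young mice. Of these markers, 2 of 12 were called higher and 2 lower, against 22.4% and 23.0% of all genes tested. These calls all ended with the length correction. The other 7 marker lists summed to at most 84.3 CPM in any mouse, except the megakaryocyte and platelet list at 145 to 221 CPM. In the names of the alignment files, every young mouse had a lower sample number than every aged one, so age and any order of preparation cannot be told apart. The part of these marker and library differences in the results was not tested.

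The sequences before the transcription start show how alike the stefin A genes are, and that of Wfdc17 is given beside them. The 250 bases upstream of the start were taken from RefSeq (GRCm38.p6, the assembly of mm10) and are written 5′ to 3′ on the strand of the gene. Promoters were found for 8 of the 10 genes, 7 by symbol and BC100530 by the coordinates of its RefSeq entry Cstdc5. In the 3 stefin A sequences, capitals mark runs of at least 10 letters that all 5 stefin A promoters share. In the Wfdc17 sequence, capitals mark the letters GAGGAA, the core of sites for the myeloid factor PU.1, read on the other strand.
Stfa2, chr16:36408364-36408613, minus strand: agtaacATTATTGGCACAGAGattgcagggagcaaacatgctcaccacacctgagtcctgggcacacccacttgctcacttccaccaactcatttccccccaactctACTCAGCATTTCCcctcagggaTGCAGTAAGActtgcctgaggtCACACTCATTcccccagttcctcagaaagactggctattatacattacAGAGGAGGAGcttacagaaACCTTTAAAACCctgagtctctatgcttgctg
Stfa2l1, chr16:36156561-36156810, plus strand: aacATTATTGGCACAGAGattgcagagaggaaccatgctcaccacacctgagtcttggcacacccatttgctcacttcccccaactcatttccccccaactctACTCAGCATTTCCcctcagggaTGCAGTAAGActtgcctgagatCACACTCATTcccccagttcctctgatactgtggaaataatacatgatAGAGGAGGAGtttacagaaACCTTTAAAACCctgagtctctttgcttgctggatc
BC100530, chr16:36367571-36367820, minus strand: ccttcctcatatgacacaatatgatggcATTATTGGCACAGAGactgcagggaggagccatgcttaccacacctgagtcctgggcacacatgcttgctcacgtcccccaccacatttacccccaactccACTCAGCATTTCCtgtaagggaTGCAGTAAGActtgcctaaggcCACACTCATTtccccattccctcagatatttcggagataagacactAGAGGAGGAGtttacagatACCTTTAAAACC
Wfdc17, chr11:83703806-83704055, plus strand: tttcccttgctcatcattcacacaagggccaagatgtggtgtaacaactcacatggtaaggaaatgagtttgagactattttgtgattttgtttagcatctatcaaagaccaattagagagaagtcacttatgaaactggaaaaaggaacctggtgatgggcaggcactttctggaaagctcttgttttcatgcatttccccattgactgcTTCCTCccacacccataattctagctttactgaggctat
The 5 stefin A promoters shared 6 such runs in the same order. The first, ATTATTGGCACAGAG, was found in 5 of 32817 promoter windows of 250 bases (0.0152%), which are these 5 genes, and the last, ACCTTTAAAACC, in 11 windows (0.0335%). The run AGAGGAGGAG was less particular and occurred in 268 windows (0.817%). Of 5 short motifs searched on both strands, TATAAA (12.4% of windows) and the AP-1 letters TGANTCA (6.75%) were found in no promoter of the 8 genes. The letters CCAAT (33.8% of windows) were found in all 5 stefin A promoters and in Wfdc17, and GAGGAA (23.3%) in these and in Cst3. The C/EBP palindrome TTGCNNAA (9.57%) was found in Slpi, Stfa1 and BC100530. A match describes the letters in this window and shows no binding.

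Fragments from the closest copies must be told apart by few bases, which bears on the counts. The first 90 coding bases of both closest pairs follow, from GENCODE M21 transcripts, with capitals where a base differs from that of the other gene of the pair.
Stfa2: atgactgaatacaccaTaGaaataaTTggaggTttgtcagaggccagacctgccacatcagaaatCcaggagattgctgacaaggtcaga
Stfa2l1: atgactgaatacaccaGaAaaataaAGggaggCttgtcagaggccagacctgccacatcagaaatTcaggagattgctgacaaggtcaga
Stfa1: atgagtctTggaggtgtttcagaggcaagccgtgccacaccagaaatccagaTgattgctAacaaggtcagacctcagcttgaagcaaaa
BC100530: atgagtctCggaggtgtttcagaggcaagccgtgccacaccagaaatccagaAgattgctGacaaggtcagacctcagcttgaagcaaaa
Stfa2 and Stfa2l1 differed at 6 of these bases and Stfa1 and BC100530 at 3. Over the aligned coding sequence, Stfa2 and Stfa2l1 were 96.5% identical (301 of 312 bases) and Stfa1 and BC100530 were 98% identical (288 of 294). Of all stretches of 50 bases in the transcripts, those also present in another gene made up 48.9% in BC100530, 25.4% in Stfa1, 24.6% in Stfa2l1 and 15.9% in Stfa2. Fragments had been counted only at a mapping quality of at least 60, so the counts of these 4 genes may leave out fragments that fit several copies, and the split within each pair is uncertain. No such stretch was shared for Stfa3, Wfdc17, Slpi, Cstb or Cst3, and 3.42% were shared for Serpinb1a with its own copies.

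All protease inhibitor genes other than Wfdc17 were called higher in aged than in young M-MDSCs, 9 of 9 with edgeR's quasi-likelihood test at an adjusted p-value under 0.05, and 5 of 9 with a correction for gene length, which ended the calls of Slpi, Stfa1, Stfa3 and Cst3. Over all genes tested, 22.4% were called higher in aged mice and 23.0% lower, and 18.3% were called higher with the length correction. The log2 fold changes of the 9 genes lay between 0.44 for Serpinb1a and 2.04 for Stfa2, and their median was 1.11 against 0.0062 over all genes tested. In 5 of these 9 genes no aged mouse was as low as any young mouse, a separation found in 9.68% of all genes tested, although in BC100530 the nearest mice of the ages were equal to 3 digits at 18.6 CPM. The genes were chosen with such results known, so these counts describe them and do not set them apart from other genes.

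**Figure D1:**
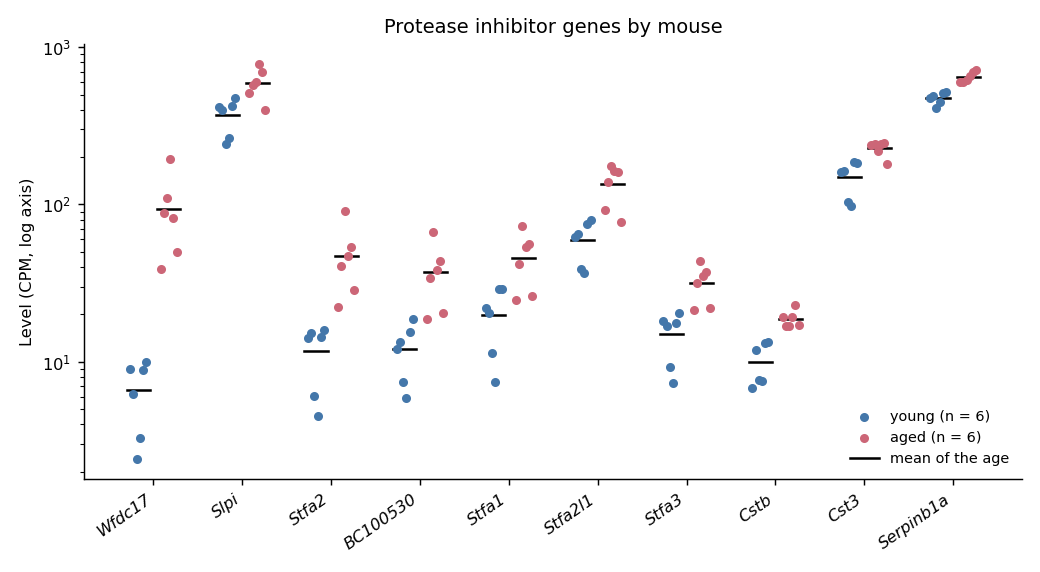
Level of each protease inhibitor gene in every mouse, in CPM on a log axis; points are mice (6 young, 6 aged) and black lines the means of the ages. The aged mice sit wholly above the young mice for Wfdc17, Stfa2, BC100530, Stfa3, Cstb and Serpinb1a, narrowly so for BC100530 and Stfa3.

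Wfdc17 (chromosome 11 of mm10, 83704056 to 83706269, plus strand, 3 exons), a small secreted WAP domain protein known from activated macrophages and microglia, showed the largest fold change of the 10 genes. Its level was 38.8, 88.1, 109, 194, 82.6 and 49.8 CPM in aged mice 1, 2, 4, 5, 6 and 7. Levels in young mice 1, 2, 5, 6, 9 and 10 were 8.99, 6.22, 2.39, 3.26, 8.79 and 9.94 CPM. The lowest aged mouse was above the highest young mouse, and the aged mice themselves spread over 4.99-fold. The mean was 6.60 ± 3.18 CPM in the young and 93.7 ± 55.3 CPM in the aged group (SD, n = 6 each). The fitted log2 fold change was 3.86 ± 0.42 (SE), or 14.5-fold, the second largest rise of all genes tested. Between 22 and 84 fragments lay behind each young value, against 348 to 2094 in aged mice. The macrophage marker sums of aged mice 1, 2, 4, 5, 6 and 7 were 1186, 381, 144, 90.8, 222 and 226 CPM. Aged mouse 1 had the highest sum and the lowest Wfdc17 level of its age. Aged mouse 5, whose sum was within the range of young mice, had the highest Wfdc17 level. The part of macrophage content in the rise of Wfdc17 was not tested. The log2 fold change of Wfdc17 was 3.41 without young mice 5 and 6, and 3.59 when aged mouse 1 was left out as well. With the length correction it was 3.26.

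Slpi (chromosome 2, 164354070 to 164356507, minus strand, 4 exons), the secretory leukocyte protease inhibitor that blocks elastase and cathepsin G, was the most abundant of the 10 genes per length. Its level was 513, 572, 604, 785, 696 and 400 CPM in aged mice 1, 2, 4, 5, 6 and 7. It was 418, 399, 244, 263, 421 and 478 CPM in young mice 1, 2, 5, 6, 9 and 10. The ages overlapped, because aged mouse 7 was below 3 of the young mice. Slpi rose by a log2 fold change of 0.68 ± 0.18 (SE; adjusted p = 0.00624), and by 0.45 without young mice 5 and 6 (adjusted p = 0.0269), but was not called with the length correction (0.29, adjusted p = 0.0981). Among the other WAP domain genes listed, 22 of 23 had a row in the table and 2 could be tested. The gene 1100001G20Rik, the older symbol of Wfdc21, lies downstream of Wfdc17 on chromosome 11 and rose from 205 ± 69.1 to 345 ± 35.5 CPM (SD, n = 6; log2 fold change 0.75, adjusted p = 0.00454), a call that also ended with the length correction (0.14, adjusted p = 0.205). Wfikkn1 was at 2.10 ± 0.63 CPM in aged and 2.19 ± 1.01 CPM in young mice (SD, n = 6; adjusted p = 0.992). Wfdc18, close to Wfdc17, reached at most 1.02 CPM in any mouse, and 18 of the listed WAP genes had no count in any mouse.

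The stefin A genes form a cluster of 299 kb on chromosome 16, and all 5 rose in aged mice. Stfa2 (36403946 to 36408363, minus strand, 3 exons) rose the most of them. Its level was 22.3, 40.4, 90.4, 47.0, 53.7 and 28.4 CPM in aged mice 1, 2, 4, 5, 6 and 7, and 14.1, 15.2, 6.08, 4.48, 14.3 and 15.9 CPM in young mice 1, 2, 5, 6, 9 and 10. No aged mouse was as low as a young mouse, with aged mouse 4 highest and young mice 5 and 6 lowest. The log2 fold change was 2.04 ± 0.35 (SE; adjusted p = 0.000466), a 4.12-fold rise, and 1.43 with the length correction (adjusted p = 0.00279).

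Stfa2l1 (36156811 to 36161948, plus strand, 3 exons), the near copy of Stfa2 at the edge of the cluster, was the most abundant of the 5. Its level was 92.5, 138, 176, 162, 162 and 77.6 CPM in aged mice 1, 2, 4, 5, 6 and 7, and 61.9, 65.2, 38.8, 36.8, 75.2 and 79.2 CPM in young mice 1, 2, 5, 6, 9 and 10. The ages overlapped through aged mouse 7, which was below young mouse 10. Its rise was 1.18 ± 0.23 (SE) on the log2 scale (adjusted p = 0.000928), and 0.53 with the length correction (adjusted p = 0.0223). Whether the rises of Stfa2 and Stfa2l1 differ was not tested.

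BC100530 (36359382 to 36367570, minus strand, 3 exons), a stefin A family gene, rose by 1.62 ± 0.32 (SE; adjusted p = 0.00113) on the log2 scale. With the length correction the rise was 1.01 (adjusted p = 0.0112). Aged mice 1, 2, 4, 5, 6 and 7 had 18.6, 34.1, 66.4, 38.5, 43.5 and 20.4 CPM, and young mice 1, 2, 5, 6, 9 and 10 had 12.1, 13.3, 7.38, 5.91, 15.4 and 18.6 CPM. Aged mouse 1 was barely above young mouse 10. Its near copy Stfa1 (36277148 to 36285371, plus strand, 3 exons) had 24.8, 42.1, 72.4, 53.9, 56.3 and 26.2 CPM in aged mice 1, 2, 4, 5, 6 and 7, and 21.9, 20.4, 11.3, 7.44, 29.1 and 28.8 CPM in young mice 1, 2, 5, 6, 9 and 10. Aged mice 1 and 7 lay below young mice 9 and 10, and the rise was 1.22 ± 0.32 (SE; adjusted p = 0.00705) on the log2 scale, a call that ended with the length correction (0.62, adjusted p = 0.0727). Stfa3 (36450537 to 36455392, minus strand, 3 exons), the gene with no shared stretch of 50 bases, had 21.3, 31.8, 43.6, 35.3, 37.0 and 21.9 CPM in aged and 18.2, 16.9, 9.22, 7.33, 17.6 and 20.4 CPM in young mice, in the same order of mice. The ages did not overlap and the rise was 1.11 ± 0.24 (SE; adjusted p = 0.00219) on the log2 scale, a call that ended with the length correction (0.47, adjusted p = 0.0536).

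**Figure D2:**
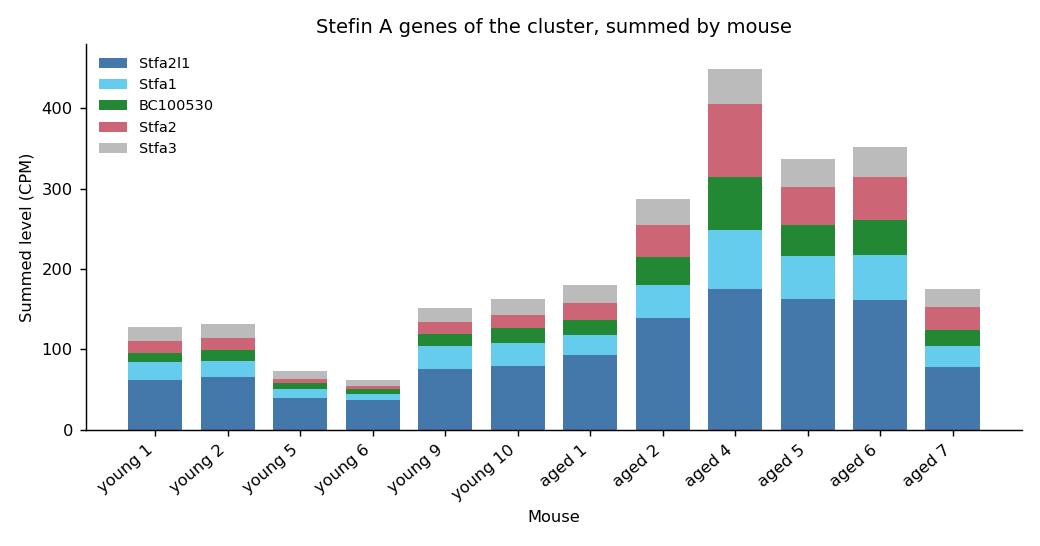
Summed level of the 5 stefin A genes in each mouse, in CPM, with the part of each gene in a bar in its own colour. Young mice 5 and 6 have the lowest sums (72.8 and 61.9 CPM) and aged mouse 4 the highest (448 CPM).

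Together the 5 stefin A genes gave 296 ± 106 CPM in aged and 118 ± 41.4 CPM in young mice (SD, n = 6), with a lowest aged sum of 174 CPM and a highest young sum of 163 CPM. Stfa2l1 made up 46.2 ± 4.23% of that sum in aged and 51.5 ± 4.25% in young mice (SD, n = 6). The share of Stfa2 was 12.4% to 20.2% with 24 months and 7.24% to 11.6% with 6 months of age, which did not overlap. The ranges of the other shares overlapped, at 10.4% to 14.8% in aged against 9.45% to 11.4% in young mice for BC100530 and 9.73% to 12.5% against 11.6% to 14.2% for Stfa3. The mean share of Stfa1 was 15.3 ± 0.94% in the aged and 16.2 ± 2.47% in the young group (SD, n = 6 each). These shares hold the uncertainty in the split between near copies. For the other stefin and cystatin genes, the 22 listed symbols gave 17 different rows, with repeats of a row counted once. Of these, 2 could be tested, both in this cluster and both called higher, against 22.4% of all genes tested. Gm5483 rose from 88.7 ± 32.3 to 203 ± 69.4 CPM (SD, n = 6; log2 fold change 1.20, adjusted p = 0.00256; 0.57 with the length correction, adjusted p = 0.0393). Of its stretches of 50 bases, 35.6% are shared with 2010005H15Rik, so the split between these copies is uncertain too. Per kilobase of exon Gm5483 exceeded every stefin A gene among the 10. Gm5416 rose from 1.12 ± 0.42 to 2.23 ± 0.73 CPM (SD, n = 6; log2 fold change 1.02, adjusted p = 0.0165). It was no longer called without young mice 5 and 6 (0.66, adjusted p = 0.13) or with the length correction (0.27, adjusted p = 0.448). BC117090 and 2010005H15Rik, further copies in the cluster, reached at most 2.89 and 1.04 CPM, and Csta, at the edge of the cluster, had no count in any mouse.

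Cstb, the gene of stefin B, which is found in the cytosol of most cells, is the relative of the stefin A genes outside the cluster (chromosome 10, 78425670 to 78427622, plus strand, 3 exons), and its coding sequence was 56.7% to 62.4% identical to those of Stfa2l1, Stfa2, BC100530 and Stfa3. It had 19.3, 16.9, 16.9, 19.1, 22.9 and 17.2 CPM in aged mice 1, 2, 4, 5, 6 and 7, and 6.84, 11.8, 7.60, 7.54, 13.1 and 13.3 CPM in young mice 1, 2, 5, 6, 9 and 10. Every aged mouse was above every young mouse. The rise was 0.90 ± 0.17 (SE; adjusted p = 0.000729) on the log2 scale. Aged mice were more alike for Cstb than for the stefin A genes, with a coefficient of variation of 12.4% against 27.7% to 51.4%.

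Cst3, the gene of the secreted cystatin C (chromosome 2, 148871732 to 148875468, minus strand, 3 exons), had 239, 243, 217, 243, 247 and 180 CPM in aged mice 1, 2, 4, 5, 6 and 7. Young mice 1, 2, 5, 6, 9 and 10 had 162, 164, 104, 98.3, 185 and 183 CPM. Aged mouse 7 was below young mice 9 and 10, and the other 5 aged mice were above every young mouse. Cst3 rose by 0.61 ± 0.15 (SE; adjusted p = 0.00436) on the log2 scale, a call that ended with the length correction (0.16, adjusted p = 0.132).

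Serpinb1a (chromosome 13, 32842092 to 32851185, minus strand, 7 exons), the inhibitor of elastase and related proteases inside neutrophils, had the smallest spread and, without the length correction, the smallest rise. With that correction its rise (0.32) was above those of Slpi (0.29) and Cst3 (0.16). Aged mice 1, 2, 4, 5, 6 and 7 had 597, 599, 621, 652, 694 and 711 CPM, and young mice 1, 2, 5, 6, 9 and 10 had 473, 487, 413, 449, 510 and 516 CPM. Every aged mouse was above every young mouse, and the log2 fold change was 0.44 ± 0.07 (SE; adjusted p = 0.000316), 1.36-fold. Of the other serpin genes, 32 of 32 had a row and 3 could be tested. Serpinb6a, another serpin inside cells, rose by 0.50 ± 0.12 (SE; adjusted p = 0.00363) on the log2 scale, while Serpinb10 had a log2 fold change of 0.0026 (adjusted p = 0.986) and Serpine2 of 0.30 (adjusted p = 0.0544), which was called with upper quartile scaling (adjusted p = 0.0377), with at least 10 counts in every mouse (adjusted p = 0.0469), without aged mouse 7 (adjusted p = 0.0283) and without young mouse 1 (adjusted p = 0.0202).

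Levels of different genes were compared as CPM per kilobase of exon. In aged mice the order was Slpi (679 ± 154), Serpinb1a (337 ± 25.4), Stfa2l1 (325 ± 97.9), Cst3 (308 ± 34.8), Wfdc17 (200 ± 118), Stfa2 (111 ± 57.1), Stfa1 (110 ± 44.4), BC100530 (83.8 ± 39.7), Stfa3 (77.2 ± 21.4) and Cstb (31.1 ± 3.87; SD, n = 6 each). The range of Slpi lay above that of Serpinb1a and the range of Stfa3 above that of Cstb, and all other neighbours overlapped. In young mice Wfdc17 was the lowest of the 10 at 14.1 ± 6.79, and its range overlapped that of Cstb (16.6 ± 4.99) just above it (SD, n = 6 each). Slpi (423 ± 108), Serpinb1a (248 ± 20.3), Cst3 (201 ± 52.0) and Stfa2l1 (144 ± 43.4) were the highest of the young levels (SD, n = 6 each), and the range of Stfa2l1 lay above that of Stfa1 next to it. The 10 genes together took 0.150% to 0.205% of all counts in aged and 0.0927% to 0.134% in young mice.

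**Figure D3:**
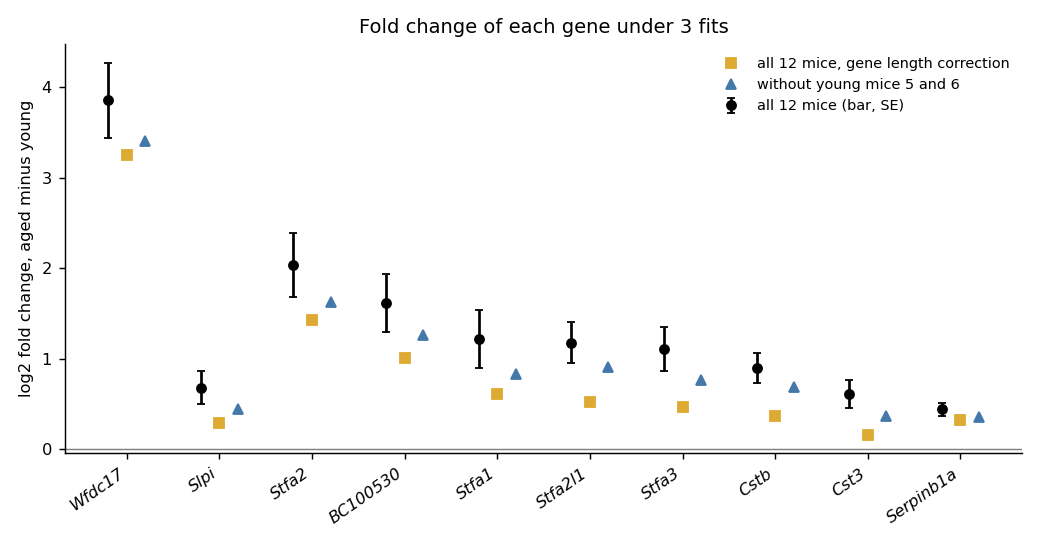
log2 fold change (aged minus young) of each gene with all 12 mice (bars, SE), with a gene length correction, and without young mice 5 and 6. The length correction gives the lowest value for each of the 10 genes, from 0.16 for Cst3 to 3.26 for Wfdc17, and all values stay above 0.

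Gene length moved with the difference between the ages. The 10 genes are short, with a median of 455 exon bases against 2890 over all genes tested, and over those 9742 genes, which share the same libraries, the log2 fold change fell with exon length (Spearman's rho of -0.48 across genes). With a correction for length the rises were smaller. Those of Stfa2 (1.43, adjusted p = 0.00279), BC100530 (1.01, adjusted p = 0.0112), Stfa2l1 (0.53, adjusted p = 0.0223), Cstb (0.37, adjusted p = 0.0303) and Serpinb1a (0.32, adjusted p = 0.00279) were still called. Those of Stfa1, Stfa3, Slpi and Cst3 were no longer called, with the values given beside each, nor was that of Gm5416 (0.27, adjusted p = 0.448). Whether the relation with length arises in the libraries or in the cells was not tested.

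The stefin A genes moved together from mouse to mouse within an age. After the mean of each age had been subtracted from log2 CPM, the 10 pairs of stefin A genes had correlations of 0.92 to 0.98 over the 12 mice (median 0.96), and the other 35 pairs of genes had 0.37 to 0.93 (median 0.69). Without young mice 5 and 6, which were low for most of the genes, the medians over the remaining 10 mice were 0.95 and 0.39. The gene most like both Stfa1 (0.98) and Stfa2 (0.97) over the 12 mice was Stfa3, and without young mice 5 and 6 BC100530 had the higher values with them (0.97 and 0.96, against 0.96 and 0.95 for Stfa3). The part of misplaced fragments between near copies was not tested. Values come from the same libraries and carry no p-value.

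**Figure D4:**
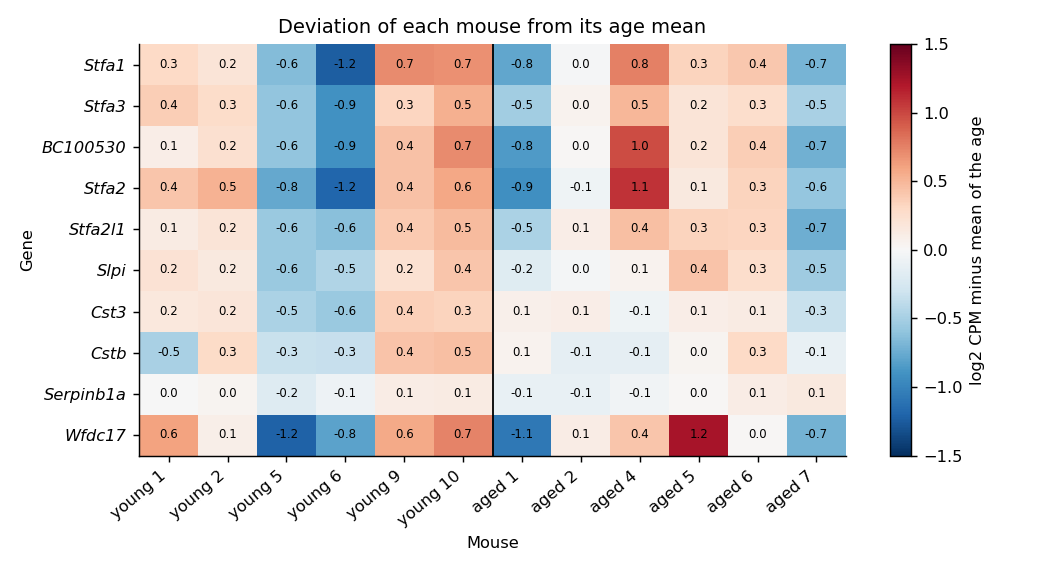
log2 CPM of each gene in each mouse minus the mean of its age; red is above and blue below that mean. The stefin A rows run alike, low in young mice 5 and 6 and in aged mice 1 and 7 and high in aged mouse 4, while aged mouse 5 is highest for Wfdc17 and Slpi.

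The genes most like the others, by the same measure over 12 mice, were mostly outside the inhibitor family. Slpi was most like Msrb1 (r = 0.99, Spearman's rho = 0.98) and Retnlg (r = 0.99, rho = 0.95), a neutrophil marker, and both relations were also near that size without young mice 5 and 6 (0.99 and 0.97). Gm5483 was among the 5 genes most like Stfa2l1 (r = 0.97), and BC100530 was most like Stfa1 and Stfa2 (r = 0.97 for both). Stfa3 was most like Gm5483 (r = 0.98). Cst3 was most like Uqcrh (r = 0.99), a subunit gene of the respiratory chain, and Rps3 (r = 0.99), a ribosomal protein gene. Cstb was most like Psmd6 (r = 0.91), a proteasome gene, and Serpinb1a was most like Itgb2 (r = 0.93), the gene of an integrin chain. Wfdc17 was most like Efhd2 (r = 0.97) and Eif4ebp1 (r = 0.96), of which the log2 fold changes were 0.37 and 0.61 against 3.86 for Wfdc17.

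The proteases that these inhibitors act on were read from lists by name. Of the cysteine cathepsins and legumain, targets of stefins and cystatins, 11 of 11 had a row, 8 could be tested and 6 were called higher, with a median log2 fold change of 0.43 over the 8, where 22.4% of all genes tested were called higher. With the length correction Ctsb, Ctsc and Lgmn were still called, and Ctsh (0.03, adjusted p = 0.785), Ctsz (0.02, adjusted p = 0.894) and Ctss (0.68, adjusted p = 0.084) were not. Aged mouse 1, the highest of all mice for macrophage markers, was also the highest aged mouse for each of the 8 genes, and their part in these calls was not tested. Lgmn, the gene of legumain, rose the most, from 3.64 ± 1.37 to 22.6 ± 29.1 CPM (SD, n = 6; log2 fold change 2.54, adjusted p = 0.00654). That value rested in part on aged mouse 1, with 79.8 CPM against 3.51 to 25.4 CPM in the other aged mice, and was 1.54 (adjusted p = 0.01) without it. The call ended with limma-voom (1.72, adjusted p = 0.0894) and with a replicate block over 8 mice (2.17, adjusted p = 0.0675). Ctsl and Ctso were not called (0.22, adjusted p = 0.267, and 0.18, adjusted p = 0.343). Of the granule serine proteases, which include elastase, a target of both Slpi and Serpinb1a, 4 of 4 had a row and 3 could be tested, and all 3 were called higher, against 22.4% of all genes tested. Elane was no longer called with the length correction (0.86, adjusted p = 0.0781). Prtn3, the gene of proteinase 3, rose from 1.60 ± 0.52 to 4.84 ± 0.82 CPM (SD, n = 6; log2 fold change 1.54, adjusted p = 9.54e-05) with no overlap of the ages, and Elane, the gene of neutrophil elastase, reached at most 4.55 CPM in any mouse.

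Inhibitors of other families did not all move the same way. Of the 16 listed, 6 could be tested and 2 were called, both lower in aged mice, against 23.0% of all genes tested called lower. The median log2 fold change over the 6 was -0.08. Itih5, an inter-alpha-trypsin inhibitor heavy chain gene, fell by 0.44 ± 0.13 (SE; adjusted p = 0.0119) on the log2 scale, and was not called with the length correction (-0.04, adjusted p = 0.783). Cast, the gene of calpastatin, which inhibits the calpains, fell from 193 ± 10.8 to 144 ± 24.2 CPM (SD, n = 6; adjusted p = 0.00213). Timp2 (0.20, adjusted p = 0.157), Reck (0.02, adjusted p = 0.901), Spint2 (0.06, adjusted p = 0.723) and Pi16 (-0.18, adjusted p = 0.16) were not called. Over all lists, 24 genes could be tested, 13 were called higher and 2 lower, against 45.4% of all genes tested that were called in either direction.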

How the data were processed

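RNA from sorted M-MDSCs of 12 mice had been sequenced in stranded, paired-end libraries. The authors deposited whole-number counts of fragments per gene, obtained with featureCounts 2.0.0 on mm10 exons, without normalization and only for fragments of mapping quality 60 or more; the aligner is not given in the sources used here. Ages were taken from the sample labels. Counts were normalized by TMM and tested with edgeR 4.0.16 in R 4.3.3 (filterByExpr, quasi-likelihood test, Benjamini-Hochberg adjustment over all 9742 genes, threshold 0.05), and the fit was tested on simulated data. CPM are relative to the TMM-scaled total, and correlations used a prior count of 2. The biological coefficient of variation was 15.7%. No pair of mice of an age agreed within sampling noise (smallest chi-square per gene 1.68). The genes and lists were chosen with earlier results of these data known. The 108 listed protease and inhibitor symbols gave 102 different rows, directly or through an older symbol in RefSeq. Symbols of a list that led to the same row were counted once. Named were the 10 genes, the largest called rise and fall of each list, up to 5 genes of a list that were not called, and the 5 genes most like each of the 10, of which some are given; other genes, such as Cast, Elane and the marker genes, were named after their values were seen. Ly6g and genes of the mitochondrial genome were not analysed here. Alternatives were DESeq2 1.42.0, limma-voom (limma 3.58.1), other scalings and filters, thinning to the smallest total, a correction for gene length, leaving out each mouse, and a replicate block.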

Additional observations from a re-analysis of the deposited data

Results flagged for a closer look

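In the 20 groups formed by the 10 inhibitor genes and the ages, no mouse stood apart from the others of its age by Dixon's criterion. Among 74 groups examined in all, 6 had such a mouse, and chance gives about 1 group in 20. Aged mouse 1 was apart for Lgmn (gap 0.713 of the range of the 6 aged mice), for Ctso (0.662) and for the summed resident macrophage markers (0.735). Aged mouse 7 was apart for Cast (0.795), where it lay among the young mice. The summed monocyte markers were apart in young mouse 10 (0.656) and the summed basophil and mast cell markers in aged mouse 4 (0.823), at 1.07 CPM.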

How the results depend on the processing

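Of the 9 inhibitor genes other than Wfdc17, 9 were called in each of the 12 fits that left out a mouse and under DESeq2, limma-voom, other scalings, other filters, thinning and both fits of 8 mice. With the gene length correction 5 were called, and 8 of the listed genes in place of 15. Leaving out a mouse gave 3804 to 4717 called genes (1864 to 2366 higher, 1940 to 2351 lower) and 13 to 17 listed genes. Without young mice 5 and 6, chosen after seeing the data for their normalization factors, 10 listed genes and 1392 genes higher were called, and 1425 higher when aged mouse 1 was left out too. The correction for GC content was not run. The ages share the numbers 1, 2, 5 and 6, but these name different animals and their deviations had correlations of -0.141, -0.065, -0.245 and -0.246, so they do not pair the mice. A replicate block over these 8 mice called 3446 genes (1586 higher, 1860 lower), 9 of the 9 inhibitor genes and 12 listed genes, against 4394, 9 and 14 without it. Lgmn was at 2.17 with that block (adjusted p = 0.0675) and at 1.72 with limma-voom (adjusted p = 0.0894). Log2 fold changes near 0 changed sign. Wfikkn1 was at -0.0039 with DESeq2, -0.082 without TMM factors, -0.012 without a filter, -0.033 with the length correction, -0.27 both with and without the block, -0.19 without young mice 5 and 6 and -0.28 without aged mouse 1 as well. Serpinb10 was at -0.078 without TMM factors, -0.0019 without a filter, and -0.13 and -0.10 without those 2 and those 3 mice. Spint2 was at -0.029, -0.16, -0.037 and -0.019 without TMM factors, with the length correction and without those 2 and 3 mice. Reck was at -0.074 without TMM factors and -0.045 and -0.044 with and without the block. Ctso was at -0.035 and Pi16 at 0.021 without those 3 mice. Leaving out each mouse in turn gave -0.10 to 0.18 for Wfikkn1, -0.048 to 0.093 for Serpinb10 and -0.058 to 0.069 for Reck. For these changes the cause was not tested. Few counts in young mice limit Elane (2 to 18 fragments), Prtn3 (4 to 20), Gm5416 (5 to 14), Lgmn (8 to 53), Wfdc17 (22 to 84) and Cstb (35 to 113), and with at least 10 counts in every mouse Prtn3, Gm5416 and Lgmn were not tested.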
